A study of Mus musculus with 2 samples.

Results

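The genes described here are 10 genes by which mast cells are recognised, taken by name from a fixed list: the carboxypeptidase gene Cpa3, the chymase genes Mcpt1, Mcpt2, Mcpt4 and Cma1, the tryptase genes Tpsab1 and Tpsb2, the stem cell factor receptor gene Kit, and Fcer1a and Ms4a2, which encode the alpha and beta chains of the high-affinity IgE receptor. All 10 were found among the 37681 Ensembl gene identifiers counted, and all 10 were measured, which means at least 10 reads in at least 1 library (16682 genes were). The RNA came from the stomach of C57BL/6 mice that carried the transgene Hdc-CFP, a fluorescent reporter of the histidine decarboxylase gene. The sorted library was made from cells labelled as sorted stomach Hdc-CFP+ cells. The depleted library was made from corpus epithelial cells from which Hdc-CFP+ cells had been removed, so both groups share strain and transgene. Each group held 1 library, and the sources used here do not give age, the transgene's regulatory sequence or the number of mice. The study's question was the origin of the Hdc-positive corpus cells, and mast cells are histamine-making cells of bone marrow origin.

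Mast cells mature in tissues under stem cell factor, the ligand of KIT, and carry IgE on the receptor that FCER1A, MS4A2 and FCER1G form. On activation they release granules with histamine, heparin-like proteoglycan and proteases. In mice a mucosal type, mostly within epithelia, makes the chymases encoded by Mcpt1 and Mcpt2. A connective tissue type makes the chymases encoded by Mcpt4 and Cma1, the carboxypeptidase encoded by Cpa3 and tryptases. C57BL/6 mice are known to carry a splice defect in Tpsab1 that leaves them without its protein.

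In GENCODE M21 the 4 chymase genes lie in 1 cluster on chromosome 14 with the coding order Cma1, Cma2, Mcpt1, Mcpt9, Mcpt2, Mcpt4 and Mcpt8, so the mucosal genes sit between the connective tissue genes. Tpsab1 and Tpsb2 are neighbours on chromosome 17. Promoter sequences were listed for 7 of the 10 members in the RefSeq table (GRCm38.p6), among them 4 proteases. The windows of Mcpt1 and Mcpt4 are shown first because they are alike while the genes differ in the libraries, as described below. Each runs over the 250 bases before the gene start, 5′ to 3′ in the direction of the gene, and capitals mark the bases that an alignment of this pair left unmatched.
Mcpt1 (chr14:56017714-56017963, + strand): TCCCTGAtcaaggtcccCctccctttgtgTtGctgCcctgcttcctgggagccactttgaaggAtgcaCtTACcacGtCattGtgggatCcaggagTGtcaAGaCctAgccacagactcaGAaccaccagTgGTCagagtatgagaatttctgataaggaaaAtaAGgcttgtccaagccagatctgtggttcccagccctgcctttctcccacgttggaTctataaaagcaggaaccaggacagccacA
Mcpt4 (chr14:56062311-56062560, - strand): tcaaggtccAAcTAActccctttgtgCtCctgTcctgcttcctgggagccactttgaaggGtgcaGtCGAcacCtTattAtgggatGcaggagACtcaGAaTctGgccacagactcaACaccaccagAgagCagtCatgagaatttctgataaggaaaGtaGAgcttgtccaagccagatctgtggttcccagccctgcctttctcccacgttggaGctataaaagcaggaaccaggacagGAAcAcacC
The 2 windows matched at 213 of 260 aligned columns (81.9%), against 53.5% for Mcpt1 with Cma1 and 54.1% for Mcpt4 with Cma1. The window of Cpa3, a gene on another chromosome, reached nearly as much: 48.9% with Mcpt1, 51.6% with Mcpt4 and 53% with Cma1. Cpa3 and Cma1 are shown because they belong to the connective tissue program and have different windows. Here capitals mark motifs searched on both strands. The first is AGATAA, which is among the forms that the factor encoded by Gata2 and its family recognise. A variant of it with another first letter is TGATAA, called the variant below. The last is CANNTG, the general E-box, of which MITF recognises some forms only.
Cpa3 (chr3:20242182-20242431, - strand): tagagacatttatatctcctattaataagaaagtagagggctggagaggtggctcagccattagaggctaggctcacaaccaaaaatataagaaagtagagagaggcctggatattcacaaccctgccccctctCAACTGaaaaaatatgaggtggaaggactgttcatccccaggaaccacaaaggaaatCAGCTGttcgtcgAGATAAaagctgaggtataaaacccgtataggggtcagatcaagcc
Cma1 (chr14:55944676-55944925, - strand): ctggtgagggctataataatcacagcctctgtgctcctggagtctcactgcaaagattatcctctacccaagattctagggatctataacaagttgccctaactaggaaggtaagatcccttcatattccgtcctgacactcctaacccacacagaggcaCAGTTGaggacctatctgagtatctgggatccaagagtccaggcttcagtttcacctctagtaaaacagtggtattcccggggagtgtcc
The Cpa3 window held 1 match of the first motif and 2 E-boxes, and the Cma1 window 1 E-box. The Mcpt1 and Mcpt4 windows each held 1 match of the variant, a motif added after the windows had been seen, in a stretch where the pair is identical. Ms4a2 held 3 matches of the first motif and Fcer1a 1, and both windows listed for Kit held none of the 3 motifs. Over all 32851 listed windows of that length, 9.99% held the first motif, 7.94% the variant and 66.2% an E-box. The narrower form CACATG, which is an E-box and was searched with its reverse complement, was found in 12.3% of all windows and among the members in Fcer1a alone. A match is a description of the sequence and not evidence of binding. Other forms that the Gata2 family recognises were not searched, so a window without a match may still hold a site.

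All 10 members stood at a higher level in the sorted than in the depleted library, by amounts from 1.78-fold for Mcpt1 to 27.9-fold for Mcpt4. Of the 10, 7 were at least 2-fold higher with an interval clear of 1, against 21.9% of all measured genes, and 0 were 2-fold lower, against 22.3%. At 4-fold the count was 5 of 10, against 13.8% of all measured genes. The median log2 fold of the members was 1.59 and that of all measured genes -0.05. Levels are given as normalised CPM, read counts brought to a common library size by trimmed-mean scaling, and folds as the ratio of these levels, sorted over depleted. Brackets hold exact 95% intervals for the error of counting reads. A group of 1 library has no replicate check, so groups were not tested against each other. In bulk RNA, fewer cells of a type and less RNA per cell cannot be told apart.

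**Figure D1:**
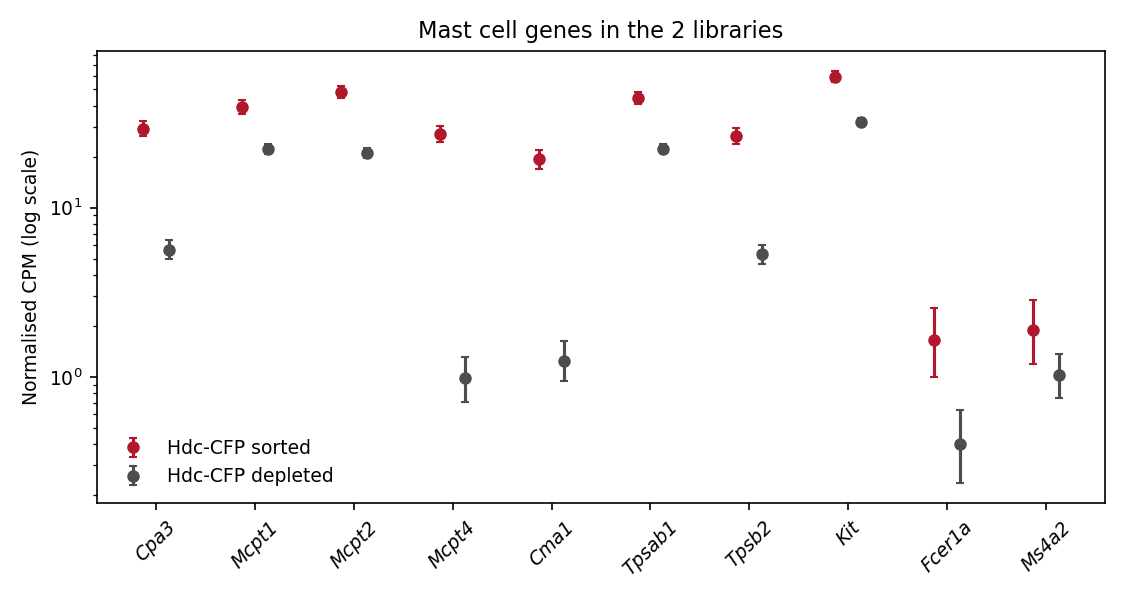
Normalised CPM (log axis) of each member in the sorted (red) and depleted (grey) library, 1 library each, with bars for the exact 95% Poisson interval. The widest gaps are those of Mcpt4 (27.3 against 0.980 CPM) and Cma1 (19.4 against 1.25 CPM), and the intervals of Ms4a2 overlap.

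The mucosal chymase genes were higher in the sorted library by about 2-fold. Mcpt1, a beta-chymase released during intestinal worm infection, had 480 reads in the sorted against 996 in the depleted library, or 39.4 CPM [36.0 to 43.1] and 22.2 CPM [20.8 to 23.6]. Its fold of 1.78 [1.59 to 1.98] stayed under 2. Mcpt2, a close relative, had 587 and 942 reads, or 48.2 CPM [44.4 to 52.3] and 21.0 CPM [19.7 to 22.4]. Its fold was 2.30 [2.07 to 2.55]. The Mcpt2 fold exceeded the Mcpt1 fold by a ratio of 1.29 [1.11 to 1.51]. Summed over both genes, the mucosal chymases were 2.03-fold higher in the sorted library [1.88 to 2.19].

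The connective tissue chymase genes showed the widest differences among the members. Mcpt4, the main chymase of connective tissue type cells in mice, had 333 reads in the sorted against 44 in the depleted library, or 27.3 CPM [24.5 to 30.4] and 0.980 CPM [0.712 to 1.32]. Cma1, the alpha-chymase, had 236 and 56 reads, or 19.4 CPM [17.0 to 22.02] and 1.25 CPM [0.942 to 1.62]. Neither pair of intervals overlapped. The folds were 27.9 [20.3 to 39.1] for Mcpt4 and 15.5 [11.6 to 21.2] for Cma1, and their ratio was 1.80 [1.14 to 2.83]. Among the folds of all measured genes these lay at percentiles 94.6 and 92.9, while Mcpt1 and Mcpt2 lay at 74.7 and 80.2. Summed, the connective tissue chymases were 21.0-fold higher in the sorted library [16.9 to 26.2].

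The mix of chymases, a quantity that needs no scaling between libraries, differed. Mucosal genes made up 1067 of 1636 chymase reads in the sorted library, or 65.2% [62.9 to 67.5]. In the depleted library they made up 1938 of 2038, or 95.1% [94.1 to 96.0]. The exact binomial intervals did not overlap. Mcpt4 took 20.4% [18.4 to 22.4] of the sorted and 2.16% [1.57 to 2.89] of the depleted chymase reads, and Cma1 14.4% [12.8 to 16.2] and 2.75% [2.08 to 3.55]. Per exon length the mucosal share was 66.5% and 95.4%. The fold of the connective tissue chymases exceeded that of the mucosal chymases 10.3 times [8.22 to 13.1]. It did so 11.8 times [9.25 to 15.1] against Mcpt1 alone and 9.13 times [7.18 to 11.7] against Mcpt2 alone.

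**Figure D2:**
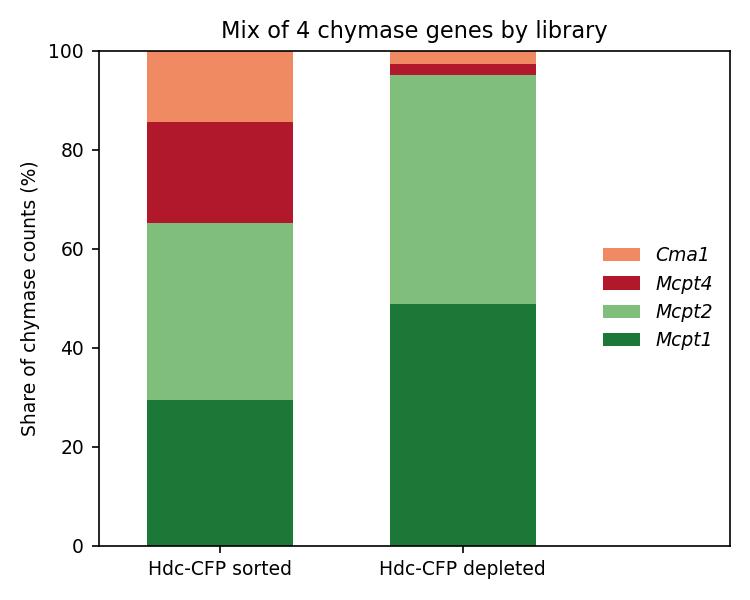
Share of chymase reads (%, bars from 0) held by Mcpt1, Mcpt2 (greens, mucosal type), Mcpt4 and Cma1 (reds, connective tissue type) in each library, from 1636 sorted and 2038 depleted reads. The mucosal share was 65.2% in the sorted against 95.1% in the depleted library.

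Cpa3 and the tryptase gene Tpsb2 had folds between those of the mucosal and the connective tissue chymases, and Tpsab1 had a fold within the mucosal range. Cpa3, whose product trims peptides in the granule, had 357 reads in the sorted against 254 in the depleted library, or 29.3 CPM [26.4 to 32.5] and 5.66 CPM [4.98 to 6.40], and its fold was 5.18 [4.40 to 6.11]. Tpsb2, which encodes the tryptase that C57BL/6 mice do make, had 324 and 238 reads, or 26.6 CPM [23.8 to 29.7] and 5.30 CPM [4.65 to 6.02]. Its fold of 5.02 [4.23 to 5.96] could not be told from that of Cpa3 (ratio of Cpa3 to Tpsb2 1.03 [0.813 to 1.31]). Tpsab1 had 542 and 999 reads, or 44.5 CPM [40.8 to 48.4] and 22.2 CPM [20.9 to 23.7], with a fold of 2.001 [1.80 to 2.22] that lies on the 2-fold limit. Tpsab1 made up 62.6% [59.3 to 65.8] of tryptase reads in the sorted against 80.8% [78.5 to 82.9] in the depleted library. The Tpsb2 fold thus exceeded the Tpsab1 fold 2.51 times [2.05 to 3.07]. Cpa3 and both tryptases were then counted on the connective tissue side. The mucosal share of protease reads was 37.3% [35.5 to 39.1] in the sorted against 54.9% [53.3 to 56.6] in the depleted library. Corrected for exon length, the mucosal part was larger in both libraries. Mcpt1 and Mcpt2 then held 21.1% and 24.7% of the 7 proteases in the sorted library. In the depleted library they held 35.7% and 32.2%.

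**Figure D3:**
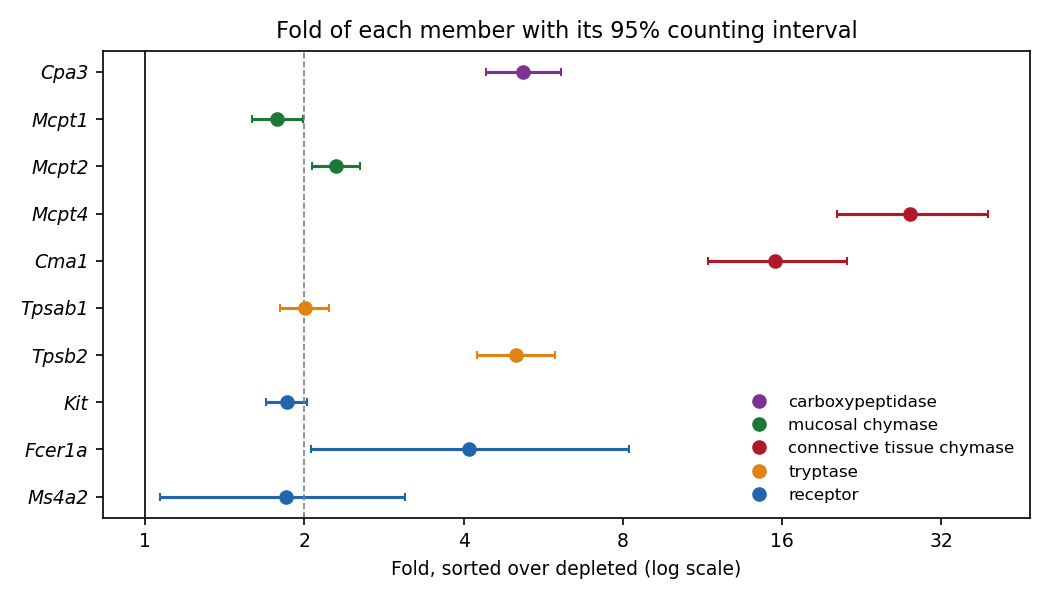
Fold of each member, sorted over depleted (log axis), with its exact 95% counting interval, coloured by role. The solid line marks equal levels and the dashed line 2-fold. Mcpt4 and Cma1 (red) lie at 27.9 and 15.5, Cpa3 and Tpsb2 near 5, and the mucosal chymases near 2.

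Of the 3 receptor genes, Fcer1a passed 2-fold, while Kit and Ms4a2 did not. Kit had 723 reads in the sorted against 1440 in the depleted library, or 59.4 CPM [55.1 to 63.9] and 32.1 CPM [30.4 to 33.8], with a fold of 1.85 [1.69 to 2.03]. Fcer1a, the IgE-binding chain, had 20 and 18 reads, or 1.64 CPM [1.003 to 2.54] and 0.401 CPM [0.238 to 0.634]. Its fold of 4.10 [2.06 to 8.22] has a wide interval. Ms4a2, the signal-amplifying beta chain, had 23 and 46 reads, or 1.89 CPM [1.20 to 2.83] and 1.02 CPM [0.750 to 1.37]. Its fold of 1.84 [1.07 to 3.10] came from levels whose separate intervals overlap. Kit is not particular to mast cells. Interstitial cells of Cajal, the gut pacemaker cells, also express it. Of the 3 other measured genes listed for them, Ano1, a chloride channel gene also active in epithelia, stood 15.0-fold lower [12.1 to 18.8] in the sorted cells. Etv1, a transcription factor gene, had a fold of 1.44 [0.925 to 2.19] and Prkcq, on 1 and 12 reads, a fold of 0.307 [0.00719 to 2.08], so neither differed beyond counting error.

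Levels of different genes were compared per exon length, as TPM, counts per exon length scaled to a common total. In the sorted library the order ran Mcpt2 (170 TPM), Mcpt1 (146 TPM), Mcpt4 (92.4 TPM), Tpsab1 (79.6 TPM), Cpa3 (72.4 TPM), Cma1 (66.6 TPM), Tpsb2 (62.5 TPM), Kit (24.9 TPM), Fcer1a (6.16 TPM) and Ms4a2 (2.51 TPM). Neighbours from Mcpt4 to Tpsb2 had overlapping intervals, as did Mcpt2 with Mcpt1 and Fcer1a with Ms4a2. Both mucosal chymases stood clear above the rest. In the depleted library Mcpt1 (43.4 TPM) and Mcpt2 (39.3 TPM) again led with overlapping intervals, followed by Tpsab1 (21.1 TPM). Cpa3 (7.40 TPM), Kit (7.14 TPM) and Tpsb2 (6.60 TPM) formed a run of overlapping neighbours, as did Cma1 (2.27 TPM) and Mcpt4 (1.76 TPM). By value Mcpt4 went from place 3 to place 8, but neither place is exact. Its interval overlapped that of Tpsab1 in the sorted library and that of Cma1 in the depleted library.

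Hdc, the gene of the sort, had 106553 reads in the sorted against 951 in the depleted library. The 7 protease genes together held 2859 and 3529 reads. Without regard to exon length, these equal 2.68% of the Hdc reads in the sorted against 371% in the depleted library. Per exon length the proteases summed to 689 TPM against 5128 TPM for Hdc in the sorted library. In the depleted library the values were 122 TPM and 6.58 TPM. Most of this contrast lies in Hdc itself, which was 413-fold higher in the sorted library [388 to 441]. The summed level of the 7 proteases was 2.99-fold higher [2.84 to 3.14]. Slc18a2, the vesicular transporter that loads histamine in both mast cells and gastric endocrine cells, had 41429 and 527 reads. Of 8 genes listed for endocrine cells, which also store histamine in the corpus, 8 passed 2-fold in the same direction. Of all measured genes 21.9% did so. The median log2 fold of the 8 was 7.39.

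Most relatives at the protease loci had few or no reads. Of 11 genes beside the chymases, 2 were measured. Ctsg, the cathepsin G gene, had 13 and 12 reads in the sorted and depleted library (3.99-fold [1.68 to 9.58]), and Gzmb, a granzyme gene of cytotoxic lymphocytes, 4 and 10. Mcpt8, a protease gene of basophils named after its value was seen, had 7 and 3 reads and was not measured. Of 11 genes beside the tryptases 2 were measured as well. Prss41, a membrane-anchored serine protease gene, was 38.5-fold higher [17.8 to 99.0] on 73 and 7 reads, and Prss32, on 8 and 49 reads, had a fold of 0.602 [0.246 to 1.28]. Among 7 other genes of the carboxypeptidase A and B family only Cpb2, known mainly from liver, was measured, with 533 and 73 reads (26.9-fold [21.0 to 34.9]).

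Genes that act with or downstream of the IgE receptor were more often lower than higher in the sorted library. Of 14 measured, 3 were higher by 2-fold or more, a share near the 21.9% of all measured genes, 7 were lower, against 22.3% of all, and the median log2 fold was -2.05. Fcer1g, the signalling chain without which the receptor does not reach the surface and which most myeloid cells share, had 6 reads in the sorted against 1982 in the depleted library, 89.6-fold lower [41.1 to 244]. The kinase genes Lyn and Syk were 8.60-fold [7.19 to 10.4] and 26.9-fold lower [18.3 to 41.3]. Fcer1g and Syk were named after their values were seen. Plcg2, a phospholipase gene, was 2.30-fold higher [2.12 to 2.49] and Plcg1 1.85-fold higher [1.70 to 2.005], and Inpp5d, a lipid phosphatase gene, was 21.1-fold lower [15.3 to 30.0]. Fyn and Grap2, named after their values were seen, were the other higher genes, at 4.72-fold [3.73 to 6.00] and 5.44-fold [3.03 to 9.97]. Around KIT, 13 genes were measured, of which 1 was higher and 2 lower, against 21.9% and 22.3% of all measured genes. Kitl, the gene of the KIT ligand, was 5.65-fold lower [5.12 to 6.24], and Pik3r1, a kinase regulatory subunit gene, 2.24-fold higher [2.17 to 2.31].

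Of 9 measured transcription factor genes of mast cells, 2 were higher, a share near the 21.9% of all measured genes. Another 4 were lower, against 22.3% of all. The median log2 fold of the list was -0.27, a sign that turns with library totals (0.08). Gata2, which mast cells require, had 67 and 105 reads and was 2.35-fold higher [1.71 to 3.23] (named after its value was seen). Mitf, with 81 and 630 reads and likewise named, was 2.11-fold lower [1.67 to 2.69]. Lmo4 and Runx1 were 3.32-fold [3.06 to 3.60] and 13.7-fold lower [10.8 to 17.5]. Spi1 was the lowest of the list, with 3 reads in the sorted against 1229 in the depleted library, 111-fold lower [37.9 to 539]. It was named after its value was seen. Of 10 genes of heparin synthesis and the granule matrix, 1 was higher and 2 lower, against 21.9% and 22.3% of all measured genes. The lower were Srgn, the proteoglycan core that holds proteases in the granule (3.99-fold [2.996 to 5.43]), and the sulphotransferase gene Hs3st1 (4.49-fold [3.41 to 6.03]), both named after their values were seen.

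All 7 genes of eicosanoid synthesis, several of which other leukocytes and epithelial cells also use, were lower by 2-fold or more. Of all measured genes 22.3% were. The median log2 fold of the 7 was -3.75. Hpgds, the prostaglandin D2 synthase gene of mast cells and some macrophages, had 6 reads in the sorted against 876 in the depleted library (39.6-fold lower [18.1 to 108]). Alox5ap was 7.44-fold lower [4.998 to 11.6]. Among 15 other measured surface and granule genes 2 were higher and 7 lower, against 21.9% and 22.3% of all measured genes. The lower were Ctsc (97.7-fold), Enpp3 (70.8-fold), Ctse (18.9-fold), Csf2rb (10.8-fold), Rasgrp4 (10.5-fold), Rab27b (8.30-fold) and Il4ra (4.14-fold). In the depleted library Ctse had 106226 reads and Rab27b 14048, against 5033 for the 10 members together. Which cells these reads came from was not tested. The higher were the integrin gene Itgae, at 5.34-fold [4.05 to 7.08], and Mrgprb1. Mrgprb1 and its neighbour in sequence Mrgprb2, receptors known from connective tissue type mast cells, had 10 and 8 reads in the sorted library and 0 in the depleted library. The lower ends of their exact fold intervals were 8.27 and 6.29, and Mrgprb2 was under the minimum of 10 reads. Itgae, Mrgprb1, Mrgprb2, Enpp3, Csf2rb, Rasgrp4 and Il4ra were named after their values were seen.

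A list of 16 mast cell markers joined the 10 members with Hpgds, Srgn, Gata2, Il1rl1, Mrgprb1 and Mrgprb2. Of 15 measured, 9 were higher and 2 lower, against 21.9% and 22.3% of all measured genes. The summed level of these markers was 312 CPM in the sorted against 152 CPM in the depleted library. None was at 0 in the sorted library. The members supplied most of these sums. Without them, the 5 measured markers among the other 6 summed to 14.6 CPM in the sorted against 40.3 CPM in the depleted library, with 2 higher (Gata2 and Mrgprb1) and 2 lower (Hpgds and Srgn). Their median log2 fold of 0.85 has the opposite sign to the difference of the sums. Markers of other cells moved at the same time. The 12 genes listed for leukocytes in general were all lower, with sums of 58.8 and 702 CPM. Ptprc, the CD45 gene, had 28 reads in the sorted against 5421 in the depleted library. The 8 macrophage genes were all lower, with sums of 10.8 and 2803 CPM. Endocrine genes summed to 72609.5 and 211 CPM. Of 4 measured basophil genes 1 was higher, a share near that of all measured genes. It was Il3ra, at 2.03-fold [1.497 to 2.73]. Prss34, named after its value was seen, was at 0 in both libraries. Eosinophil genes (3 of 7 measured) were 0 or 2 reads each in the sorted library. T and NK cell genes (3 of 10 measured) had 8 reads or fewer. Ccr3, Siglecf and Cd4 were lower, with 437, 130 and 3563 reads in the depleted library. The other genes of both lists had 13 reads or fewer there too, so their low sorted counts show no clear change. The part of these other cells in the levels of the 10 members was not tested.

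**Figure D4:**
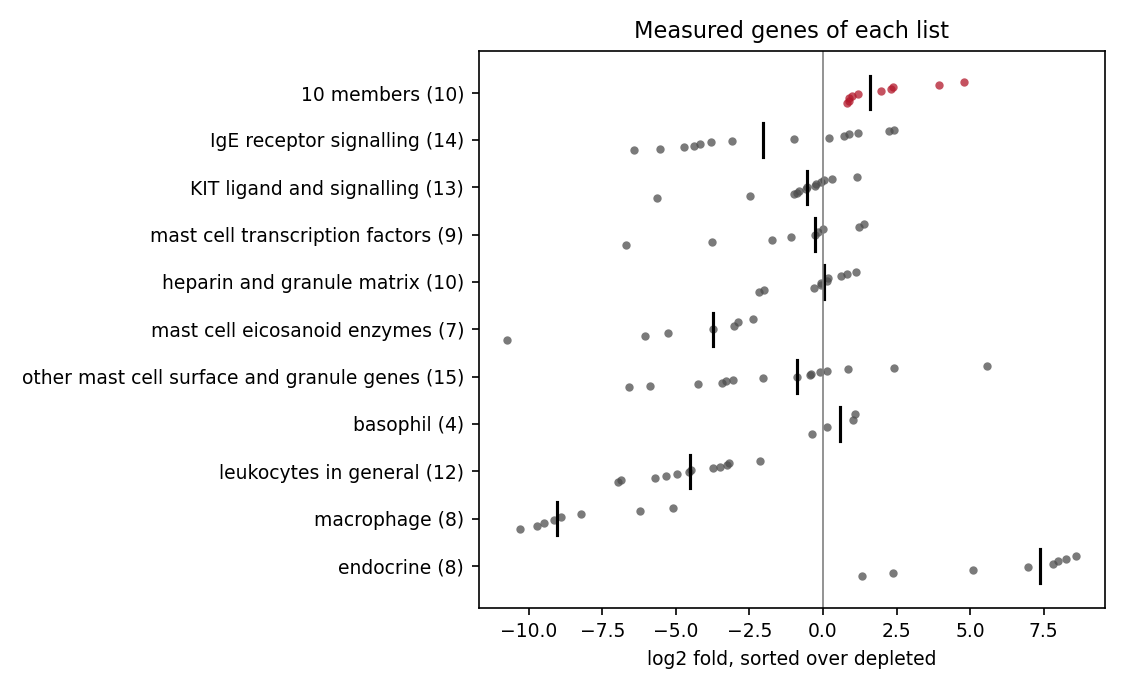
log2 fold, sorted over depleted, of each measured gene (points, number in parentheses) with the list median (black bars). The 10 members (red) all lie above 0 with a median of 1.59, leukocyte genes lie below 0 (-4.52) and endocrine genes above (7.39). Values of genes with 0 reads in 1 library depend on the 0.5 added to counts.

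The genes whose pair of levels lay nearest to that of Cpa3, by distance over log2 CPM in the 2 libraries, were Mfhas1, 1110051M20Rik, Pcbp4, Naip6 and Tctn3, at distances from 0.06 to 0.10. Nearest to Mcpt4 were Rragb, Ift57, Hectd2, Zfr2 and Pdzd4, at distances from 0.07 to 0.15. None was a listed mast cell gene, and likeness over 2 values is weak. Reads of near-identical genes could be lost or shared: 5.48% of the 50-base words of Mcpt4 transcripts also occur in Cma2, 5.38% of those of Cma1 in Gm48934 and 2.098% of those of Ms4a2 in Ms4a4b. The other 7 members shared 0 words with another gene. No exon of a member overlapped that of another annotated gene.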

How the data were processed

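RNA from 1 library of sorted Hdc-CFP+ cells and 1 of depleted corpus epithelium was sequenced from column-purified RNA with the TruSeq RNA kit, per the labels' protocols. Reads were aligned with TopHat2 2.0.07 to mm9 and counted with HTSeq, per the submitters' processing notes. The HTSeq version, its strand setting and the annotation release are not stated in the sources used here. What the authors deposited are raw read counts for each Ensembl gene, 10736538 in the sorted against 50928524 in the depleted library, so a read is worth more in the former and a count of 0 allows 0.246 and 0.0668 CPM (3 reads). The 5 summary rows stayed out: reads outside genes were 9.20% and 4.91% of the sorted and depleted totals, ambiguous reads 1.45% and 1.11%, and non-unique alignments 24.2% and 34.3%.

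Symbols and merged exon lengths came from GENCODE M21 (GRCm38), which named 32642 of 37681 identifiers, so coordinates are given only for the RefSeq promoter windows. TMM factors (edgeR 4.0.16, R 4.3.3) over measured genes were 1.13 and 0.882. Fold intervals are exact binomial (Clopper-Pearson), level intervals exact Poisson, and ratios of folds have conditional exact intervals (scipy 1.17.1). Log2 folds add 0.5 to counts in proportion to library size. A gene counted as higher or lower at 2-fold with an interval clear of 1. Fold and interval code was tested on simulated data. The members and the 24 gene lists were chosen with earlier results of these data known. By rule the text names all members, up to 4 measured genes of each list with the most CPM and the 5 nearest genes to Cpa3 and to Mcpt4, and says where a gene was named after its value was seen. Alternatives were other scalings (library totals, DESeq2 1.42.0 size factors, upper quartile, a total without the 20 most abundant genes, and TMM over all genes, which was chosen after seeing the data), no minimum count, 1 added to counts, a 4-fold limit and other groupings of the proteases.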

Additional observations from a re-analysis of the deposited data

How the results depend on the processing

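No paired analysis was possible because each group held 1 library, and no library could be left out. All 10 members kept a fold above 1 under every scaling tried, from a lowest value of 1.65 for Mcpt1 to a highest of 35.9 for Mcpt4. Relative to TMM over measured genes, log2 folds moved by 0.36 with library totals, 0.20 without the 20 most abundant genes and -0.11 with TMM over all genes. Of all genes called, 62.4% were higher with library totals against 49.5% with the main scaling. The count of members at least 2-fold higher was 7, and it was 10 with library totals or without the 20 most abundant genes, 6 with DESeq2 size factors or TMM over all genes, where Tpsab1 fell under 2-fold, and 7 with upper-quartile factors or no minimum count. Cpa3 and the tryptases were also put on the connective tissue side. The mucosal share of reads, not corrected for exon length, was then 37.3% in the sorted against 54.9% in the depleted library. The ratio of folds was 2.05 [1.85 to 2.27] in place of 10.3. Cpa3, Tpsb2 and Tpsab1 had smaller folds (5.18, 5.02 and 2.001) than the connective tissue chymases, so the wider contrast was that of Mcpt4 and Cma1. The median log2 fold of the tryptase relatives turned from 2.20 to -1.27 without a minimum count, where genes of a few reads enter. Fcer1a and Ms4a2, with 20 and 23 sorted reads, are limited by depth.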
